A study of Danio rerio with 3 samples.

Results

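The hypothalamic neuropeptide genes *hcrt*, *npy*, *agrp*, *oxt*, *avp*, *crhb*, *trh*, *vip* and *pmch* were taken from the deposited expression table by their symbols, and all 9 were found, each on 1 row, among 28084 named genes. RNA-seq was performed on whole zebrafish larvae of the AB strain at 6 dpf (days post-fertilization), in a study of how autophagy and Hedgehog signaling act on osteoblasts. There was 1 library for each of 3 groups. The 5MO library came from larvae given a morpholino, an antisense oligonucleotide against the autophagy gene *atg5*, as early embryos (genotype label: *atg5* knockdown). The 5mRNA library came from larvae injected with *atg5* mRNA (label: *atg5* overexpression), and the WT library from untreated, wildtype larvae. The study's methods give 30 larvae each for 5MO and WT, so a value is an average over pooled animals. WT larvae received no injection, and a mismatch morpholino was not among the sequenced groups, so the injection and the change in *atg5* cannot be told apart. With 1 library per group, no difference below has a replicate check, and all comparisons are of libraries.

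Neuropeptides are made as precursor proteins, cut by proteases in the secretory pathway, stored in dense core granules and released to act on G protein-coupled receptors. In the fish hypothalamus small groups of neurons make each of these peptides. Hypocretin (*hcrt*) keeps animals awake, melanin-concentrating hormone (*pmch*), neuropeptide Y (*npy*) and agouti-related peptide (*agrp*) act on feeding, and the oxytocin and vasopressin precursors (*oxt*, *avp*) are made by neurons that project to the posterior pituitary. Corticotropin-releasing hormone (*crhb*) and thyrotropin-releasing hormone (*trh*) drive endocrine axes, and vasoactive intestinal peptide (*vip*) is also made outside the hypothalamus, in gut neurons and in the retina. The RNA here was from whole larvae, so a value is the sum over every tissue that expresses the gene, and fewer cells of a type and less RNA per cell cannot be told apart.

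Values are RPKM, the reads of a gene scaled to its length and to the read total of its library. Levels of different genes are set beside each other on that scale. Other differences in how genes are counted were not tested. The table's RPKM fell on steps that gave read totals of 20301332 in 5MO, 21857365 in 5mRNA and 19502144 in WT, and a number of reads behind each value. A change is given as the ratio between 2 libraries of the gene's share of all reads. Its 95% interval (Clopper-Pearson), called the counting interval, covers counting error only, since the reads were amplified by PCR with no molecular identifiers and each group was sampled as 1 pool. The targeted gene *atg5* (chromosome 16) had an RPKM of 7.69 in 5MO, 8.97 in 5mRNA and 9.08 in WT, with ratios of 0.847 (interval 0.731 to 0.980) for 5MO over WT and 0.989 (0.8615 to 1.135) for 5mRNA over WT. A morpholino need not lower the mRNA it binds, and the library labelled 5mRNA did not hold more *atg5* reads than WT beyond counting error. The marker genes checked for neurons, glia, pituitary, muscle, liver, lens and photoreceptors all had reads in every library, as in a whole larva. The pituitary marker *prl* rested on only 5, 3 and 4 reads in 5MO, 5mRNA and WT. The pituitary hormone genes *smtla* and *smtlb*, which were not among these markers, had 0 reads in at least 1 library. The liver gene *tfa* was at 286.7 RPKM in 5MO and 286 in 5mRNA, against 185.9 in WT, and its bearing on the neuropeptide genes was not tested.

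The 9 genes stood above 36.6% (*avp*) to 73.7% (*vip*) of named genes in 5MO. The range was 30.6% (*pmch*) to 77.1% (*vip*) in 5mRNA and 24.9% (*hcrt*) to 79.7% (*vip*) in WT. The RPKM of the 9 genes lay between 1.52 and 10.7 in 5MO, between 0.868 and 12.5 in 5mRNA and between 0.425 and 14.5 in WT. The highest member was 7.02 times the lowest in 5MO, 14.4 times in 5mRNA and 34.2 times in WT. Summed over the members, the levels were close, with 52.9 RPKM in 5MO, 54.8 in 5mRNA and 56.0 in WT. These sums rest on 966, 1093 and 1047 reads, in the same order. Each gene therefore rests on few reads, between 4 (*hcrt* in WT) and 314 (*vip* in WT).

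**Figure D1:**
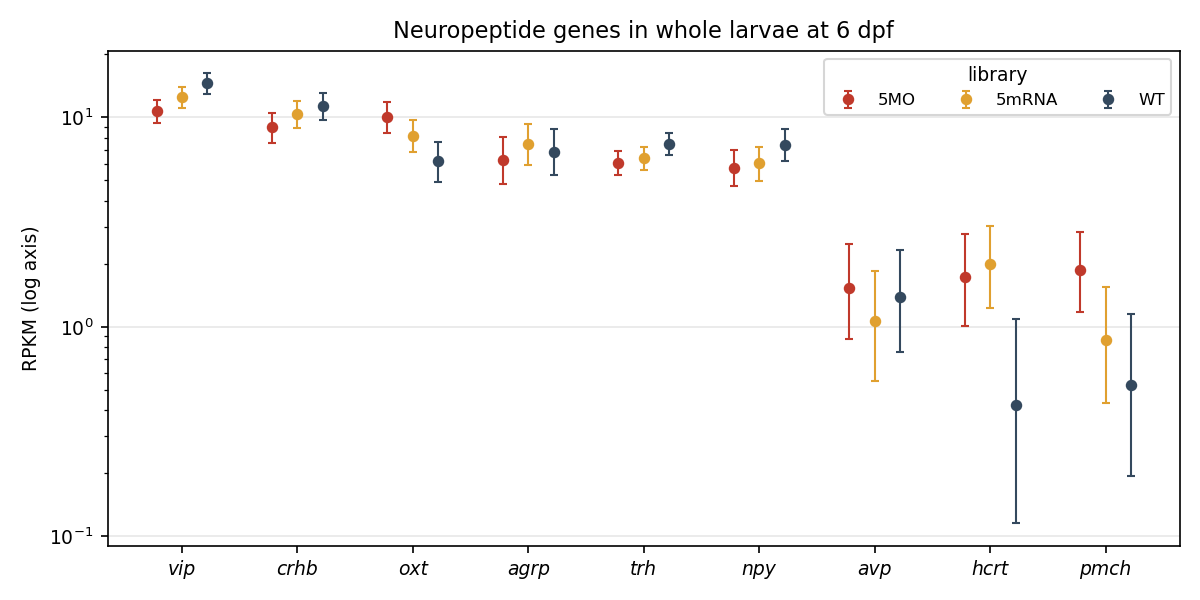
RPKM (log axis) of the 9 neuropeptide genes in the 5MO, 5mRNA and WT libraries, 1 point per library, with bars for the 95% counting interval of its reads. 6 genes sit between 5.74 and 14.5 RPKM in all libraries, and *avp*, *hcrt* and *pmch* between 0.425 and 1.99 RPKM.

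In each library *vip* was the highest of the 9, and *avp*, *hcrt* and *pmch* were the 3 lowest. In 5MO the order ran *vip*, *oxt*, *crhb*, *agrp*, *trh*, *npy*, *pmch*, *hcrt* and *avp*. In 5mRNA it ran *vip*, *crhb*, *oxt*, *agrp*, *trh*, *npy*, *hcrt*, *avp* and *pmch*. In WT it ran *vip*, *crhb*, *trh*, *npy*, *agrp*, *oxt*, *avp*, *pmch* and *hcrt*. Most neighbours in these orders were not separated, as their counting intervals overlapped, and these intervals cover counting error only. The neighbours that were separated were *npy* above *pmch* in 5MO, *npy* above *hcrt* in 5mRNA, and *crhb* above *trh* and *oxt* above *avp* in WT. *oxt* moved most, with rank 2 in 5MO, rank 3 in 5mRNA and rank 6 in WT.

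Set against WT, 5MO had 3 of the 9 genes at least 1.5-fold higher (*hcrt*, *pmch* and *oxt*) and 0 at least 1.5-fold lower, on the scale of log2(RPKM + 0.1), which understates the changes of low genes. Of all 23709 genes tested, those averaging at least 0.1 RPKM over the libraries, 9.17% were that much higher and 9.39% that much lower in 5MO. Among the 12524 genes whose mean RPKM lay within the members' range of 1.09 to 12.6, these shares were 6.68% and 6.89%. The counting interval lay above 1 for the same 3 members and below 1 for 3 others (*vip*, *crhb* and *trh*), against 19.0% and 18.5% of all genes. The median log2 ratio of the 9 genes was -0.13, beside 0.01 over all genes tested. Of all genes tested, 12027 were higher and 11641 lower in 5MO by any amount. As *hcrt* and *pmch* had under 10 reads in WT, the count past 1.5-fold was 1 of the remaining 7 without them.

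In 5mRNA over WT, 2 members were at least 1.5-fold higher (*hcrt* and *pmch*) and 0 lower, with 9.06% of all genes that much higher and 8.74% that much lower, or 6.22% and 6.65% within the members' range. The interval lay above 1 for 1 member (*hcrt*) and below 1 for 0 members, against 17.5% and 17.0% of all genes. The median log2 ratio was -0.12, beside 0.01 over all genes, of which 12121 were higher and 11547 lower in 5mRNA by any amount. In 5MO over 5mRNA, 1 member (*pmch*) was at least 1.5-fold higher and 0 lower, with 9.21% and 9.31% of all genes past that fold. The interval lay above 1 for *pmch* alone and below 1 for 0 members, against 20.0% and 20.1% of all genes, and the median was -0.07. Both comparisons with WT use the same WT library, so a high or low WT value enters both in the same direction. The shares of all genes given here also stand as the background of the gene lists below. Interval counts depend on the reads of a gene as well as on its change.

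**Figure D2:**
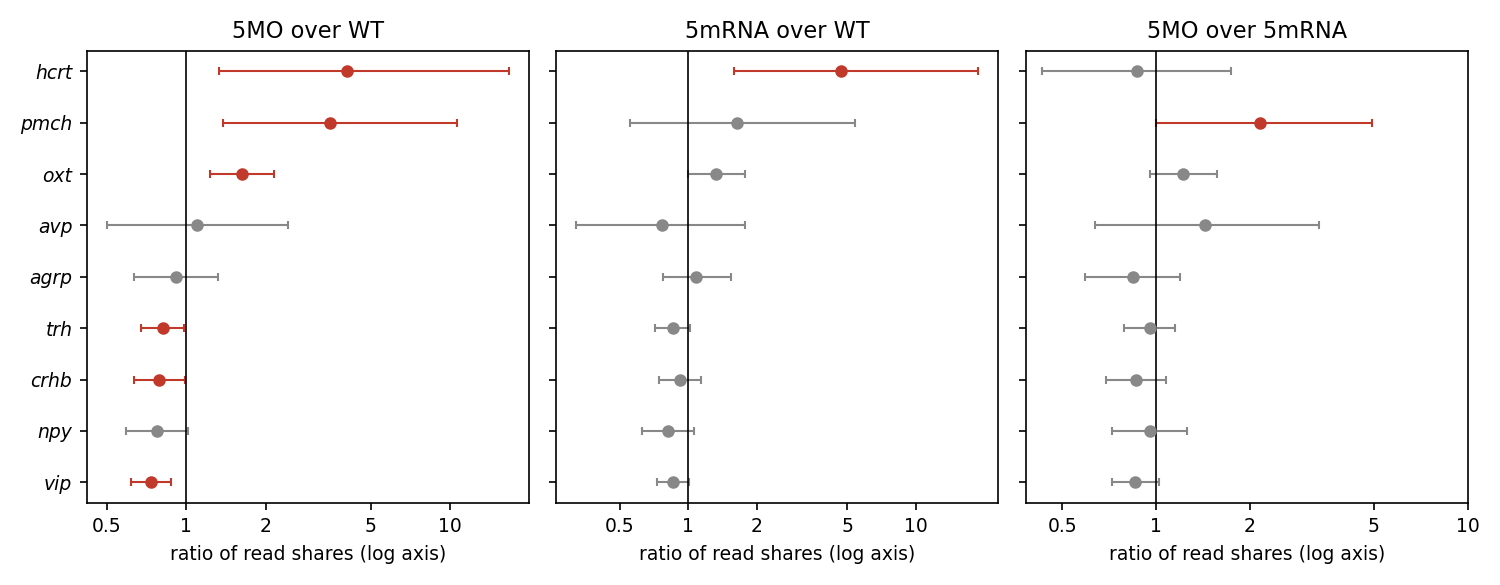
Ratio of read shares (log axis) of each neuropeptide gene for 5MO over WT, 5mRNA over WT and 5MO over 5mRNA, with the 95% counting interval as a bar and intervals that leave out 1 in red. *hcrt*, *pmch* and *oxt* lie above 1 and *trh*, *crhb* and *vip* below 1 for 5MO over WT, while *hcrt* alone leaves out 1 for 5mRNA over WT and *pmch* alone for 5MO over 5mRNA.

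The peptides of arousal and feeding did not move together. *hcrt* (ENSDARG00000070932, chromosome 3, 17387552 to 17391648, plus strand, danRer10) codes for the precursor of the hypocretins, also called orexins. It had 1.73 RPKM in 5MO and 1.99 in 5mRNA, against 0.425 in WT, from 17, 21 and 4 reads. Both injected libraries were high and their counting intervals overlapped widely. WT was low, with an interval that just reached that of 5MO. The ratio was 4.08 for 5MO over WT, with an interval from 1.33 to 16.7, and 4.68 for 5mRNA over WT, with an interval from 1.58 to 18.8. Between 5MO and 5mRNA it was 0.872 (0.432 to 1.735). The size of the difference from WT rests on the 4 WT reads, and the intervals span more than a factor of 10.

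*pmch* (ENSDARG00000073959, chromosome 4, 17347581 to 17349777, plus strand) codes for the precursor of melanin-concentrating hormone. It had 1.87 RPKM in 5MO and 0.868 in 5mRNA, against 0.530 in WT, from 22, 11 and 6 reads. 5MO was the highest library, and the interval of 5mRNA overlapped those of both others. The ratio was 3.52 (1.385 to 10.6) for 5MO over WT, 1.64 (0.5545 to 5.39) for 5mRNA over WT and 2.15 (1.001 to 4.92) for 5MO over 5mRNA. *pmch* lies inside *nup37*, a nuclear pore gene on the same strand that runs over 17338728 to 17381441, and its end touches *parpbp*, a gene of the opposite strand that starts at 17349754. *nup37* had 7.44 RPKM in 5MO, 8.46 in 5mRNA and 6.51 in WT, and *parpbp* 0.985, 0.597 and 1.025 RPKM. Reads of *nup37* transcripts in the region cannot be told apart from those of *pmch*, and whether they add to it was not tested. The other 8 members overlap no other named gene of the table, and the rows that name no gene were not searched.

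*npy* (ENSDARG00000036222, chromosome 19, 20527423 to 20529826, minus strand), whose peptide promotes feeding and is also widespread outside the hypothalamus, had 5.74 RPKM in 5MO and 6.02 in 5mRNA, against 7.40 in WT, from 101, 114 and 125 reads. WT was the highest, but its counting interval overlapped those of both injected libraries. The ratios were 0.776 (0.591 to 1.02) for 5MO over WT and 0.814 (0.626 to 1.06) for 5mRNA over WT. *agrp* (ENSDARG00000069089, chromosome 7, 34809672 to 34811825, minus strand), which blocks melanocortin receptors and promotes feeding, had 6.29 RPKM in 5MO and 7.47 in 5mRNA, against 6.87 in WT, from 61, 78 and 64 reads. The 3 libraries did not separate for *agrp*. Its ratios were 0.916 (0.634 to 1.32) for 5MO over WT and 1.09 (0.771 to 1.54) for 5mRNA over WT.

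Of the posterior pituitary hormones, *oxt* (ENSDARG00000042845, chromosome 5, 71303113 to 71308749, plus strand) was higher in 5MO and *avp* was not separated between libraries. *oxt* had 10.01 RPKM in 5MO and 8.18 in 5mRNA, against 6.16 in WT, from 142, 125 and 84 reads. The 3 values ran in steps, with 5MO highest and WT lowest, and only the intervals of 5MO and WT did not overlap. The ratio was 1.62 (1.23 to 2.15) for 5MO over WT and 1.33 (0.999 to 1.77) for 5mRNA over WT, whose interval just includes 1. For 5MO over 5mRNA it was 1.22 (0.955 to 1.57). Of the 3 members past 1.5-fold in 5MO, *oxt* has the most reads. *avp* (ENSDARG00000058567, chromosome 8, 1083133 to 1091637, plus strand), the vasopressin precursor, had 1.52 RPKM in 5MO and 1.06 in 5mRNA, against 1.39 in WT, from 16, 12 and 14 reads. Its ratios of 1.098 (0.502 to 2.43) and 0.765 (0.323 to 1.78) over WT were not separated from 1. The first interval still reached past a 2-fold rise and the second past a 2-fold fall.

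The releasing peptides and *vip* were lower in 5MO. *crhb* (ENSDARG00000027657, chromosome 24, 24702509 to 24736822, minus strand), which drives the pituitary cells that stimulate the fish interrenal gland, had 8.94 RPKM in 5MO and 10.3 in 5mRNA, against 11.3 in WT, from 147, 183 and 178 reads. The ratio was 0.793 (0.633 to 0.993) for 5MO over WT and 0.917 (0.742 to 1.13) for 5mRNA over WT. *trh* (ENSDARG00000006868, chromosome 8, 54107707 to 54110479, minus strand), named for its action on thyrotropes, had 6.08 RPKM in 5MO and 6.37 in 5mRNA, against 7.45 in WT, from 219, 247 and 258 reads. The ratio was 0.815 (0.678 to 0.980) for 5MO over WT and 0.854 (0.7145 to 1.02) for 5mRNA over WT. For both genes the intervals of the 3 levels overlapped, and the interval of the ratio for 5MO over WT ended just below 1. With a 99% interval both ratios included 1.

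*vip* (ENSDARG00000078247, chromosome 13, 46698120 to 46701742, minus strand) had the most reads of the 9 genes. Its RPKM was 10.7 in 5MO and 12.5 in 5mRNA, against 14.5 in WT, from 241, 302 and 314 reads. 5MO was lowest and did not overlap WT, with 5mRNA between them and overlapping both. The ratio was 0.737 (0.621 to 0.875) for 5MO over WT, 0.858 (0.730 to 1.01) for 5mRNA over WT and 0.859 (0.722 to 1.02) for 5MO over 5mRNA. *vip*, *crhb*, *trh* and *npy* all had the order 5MO lowest, 5mRNA between and WT highest, at log2 ratios of -0.44, -0.33, -0.29 and -0.36 in 5MO and -0.22, -0.12, -0.22 and -0.29 in 5mRNA. None of these 4 reached 1.5-fold. For 5MO over 5mRNA the ratio was 0.865 (0.691 to 1.08) for *crhb*, 0.955 (0.792 to 1.15) for *trh* and 0.954 (0.722 to 1.26) for *npy*. With that of *vip*, all 4 intervals included 1, so the order of 5MO and 5mRNA was not separated. The share of all genes with this order was not computed.

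Since *vip* is made by neurons of the gut and retina too, genes listed for those neurons were read beside it. Their values are sums over the whole larva, so the lists do not read gut or retinal neurons alone. Of 9 enteric neuron genes, 5 were higher and 4 lower in 5MO than in WT, 2 with an interval above 1 and 0 below, with a median log2 ratio of 0.15. Their summed level was 206.1 RPKM in 5MO, 192.3 in 5mRNA and 190.4 in WT, of which *elavl3*, an RNA-binding protein of neurons in general, gave 152.0, 135.1 and 137.2 RPKM. The transcription factors *phox2a* and *phox2bb* had ratios of 1.446 (1.204 to 1.739) and 1.196 (0.9965 to 1.438), and the nitric oxide synthase *nos1* and the GDNF receptor *gfra1a* 0.829 (0.656 to 1.05) and 0.838 (0.690 to 1.02). In 5mRNA 6 were higher and 3 lower, with a median of 0.09. Of 10 genes of retinal amacrine and ganglion cells, 5 were higher and 5 lower in 5MO, 3 with an interval above 1 and 2 below, with a median of -0.03, and in 5mRNA 6 were higher and 4 lower, with a median of 0.03. Their summed level was 373.1 RPKM in 5MO, 368.6 in 5mRNA and 366.9 in WT. The highest was the GABA-synthesizing enzyme *gad1b*, at 122.5, 136.3 and 131.3 RPKM. The amacrine cell factor *ptf1a* had a ratio of 2.14 (1.08 to 4.49) from 29 reads in 5MO and 13 in WT, the parvalbumin *pvalb6* 1.24 (1.12 to 1.363), the dopamine-synthesizing enzyme *th* 0.873 (0.689 to 1.105) and the acetylcholine-synthesizing enzyme *chata* 0.893 (0.793 to 1.004). *chata* is in both lists, and how much of these genes' reads came from other tissues was not tested. The part of gut and retinal neurons in the values of *vip* was not tested.

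The members were also set beside 29 general neuronal genes. In 5MO 24 of these were higher than in WT and 5 lower, 22 with an interval above 1 and 2 below, at a median log2 ratio of 0.20 and 1 past 1.5-fold. Of all genes 19.0% had an interval above 1 and 18.5% below. Most of these 29 genes have far more reads than the members, which narrows their intervals, so interval counts cannot be compared between them. In 5mRNA 11 were higher and 18 lower, 4 with an interval above 1 and 13 below, at a median of -0.05. Their summed level was 2233 RPKM in 5MO, 2010 in 5mRNA and 2047 in WT. The highest, the synaptic protein *snap25a*, had 283.1, 288.9 and 269.35 RPKM. The largest increases in 5MO were of the tubulin *tubb5*, with 45.9 RPKM in 5MO and 23.9 in 5mRNA against 26.1 in WT, and of the axonal growth gene *stmn2b*, with 39.0 and 22.3 RPKM against 26.7. The lowest ratios were those of *snap25b* (0.908) and the neuronal enolase *eno2* (0.909). With the median of the neuronal genes subtracted from its log2 ratio for 5MO over WT, *hcrt* stood at 1.60, *pmch* at 1.44 and *oxt* at 0.49, and *avp* at -0.08. By the same measure *agrp* stood at -0.33, *trh* at -0.49, *crhb* at -0.53, *npy* at -0.56 and *vip* at -0.64. The subtraction lowers every member by the same 0.20. The members that were lower in 5MO therefore lie further down by it, and *hcrt*, *pmch* and *oxt* less far up. In 5mRNA the values were 2.04 for *hcrt*, 0.67 for *pmch* and 0.45 for *oxt*, and between -0.31 (*avp*) and 0.17 (*agrp*) for the others. The part of neuronal content in the members' values was not tested.

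**Figure D3:**
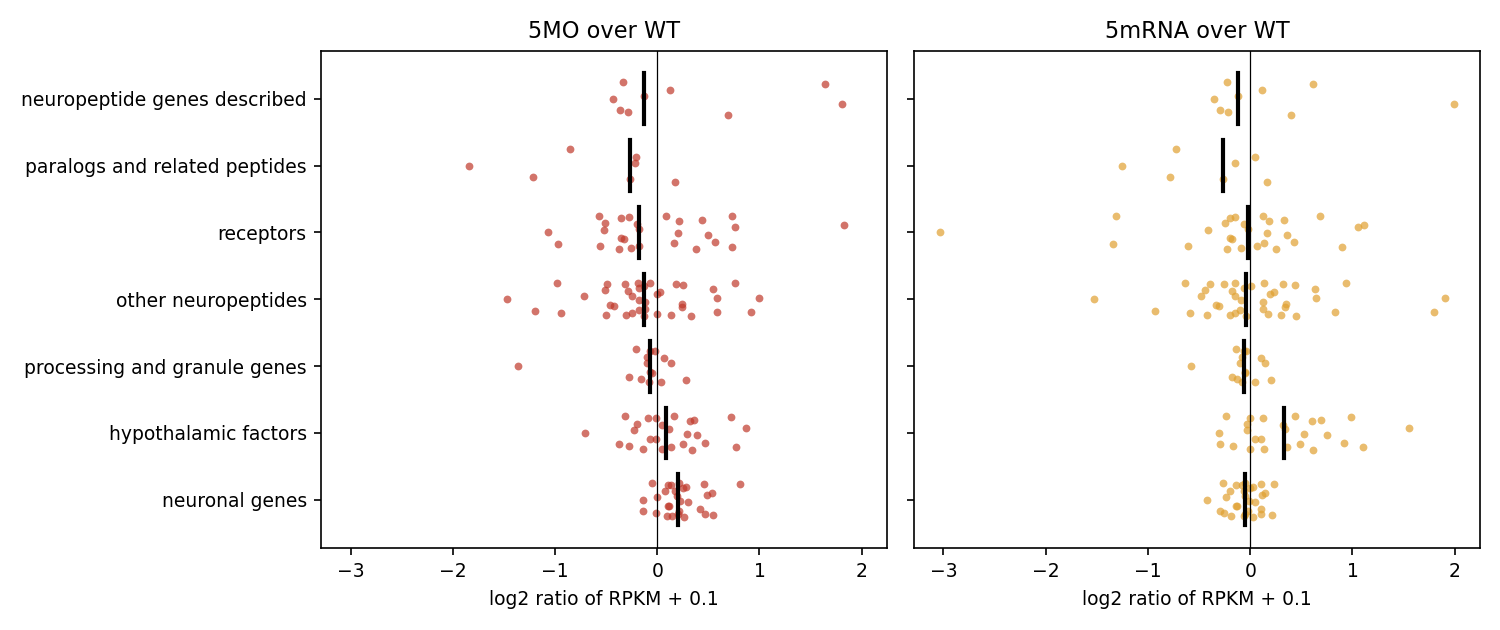
Log2 ratio of RPKM + 0.1 for 5MO over WT and 5mRNA over WT of the 9 neuropeptide genes and of 6 gene lists, 1 point per gene tested and a black bar at the median. The medians are 0.20 (5MO) and -0.05 (5mRNA) for the neuronal genes and -0.13 and -0.12 for the neuropeptide genes. Genes at 0 in a library have a ratio that depends on the 0.1 added.

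Most genes of a list of paralogs, related peptides and neuropeptide B (*npb*) were lower in 5MO. Of 7 such genes, 1 was higher and 6 were lower than in WT, with 0 past 1.5-fold upward and 3 downward, 1 interval above 1 and 3 below, and a median log2 ratio of -0.26. In 5mRNA 2 were higher and 5 lower, with 0 and 3 past the fold. Intervals lay above 1 for 1 gene and below 1 for 2 genes, and the median was -0.26. This 5mRNA median is the value of *npb*, for which no relation to a member is given here. *crha* is among the 3 past the fold downward in both injected libraries, from 1, 1 and 4 reads in 5MO, 5mRNA and WT. *vipb*, the paralog of *vip*, was lower in both injected libraries, with 1.56 RPKM in 5MO and 3.48 in 5mRNA, against 5.82 in WT, from 27, 65 and 97 reads. The 3 levels were separated from each other. Its ratios were 0.267 (0.168 to 0.413) for 5MO over WT and 0.598 (0.430 to 0.827) for 5mRNA over WT, in the same direction as *vip* and further from 1. *pmchl*, the second melanin-concentrating hormone gene of teleosts, where the hormone is known for paling of the skin, had 4.46 RPKM in 5MO and 4.66 in 5mRNA, against 8.13 in WT, from 24, 27 and 42 reads. Its ratios of 0.549 (0.318 to 0.928) and 0.574 (0.340 to 0.952) were below 1, where that of *pmch* for 5MO over WT was above 1. *pmchl* was the higher of the pair in all 3 libraries. Its reads are the lowest whole-number solution, at a length of 265. Its span of 54042495 to 54043024 also holds 2 times that length, so the true reads may be 2 times those given, with narrower intervals.

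**Figure D4:**
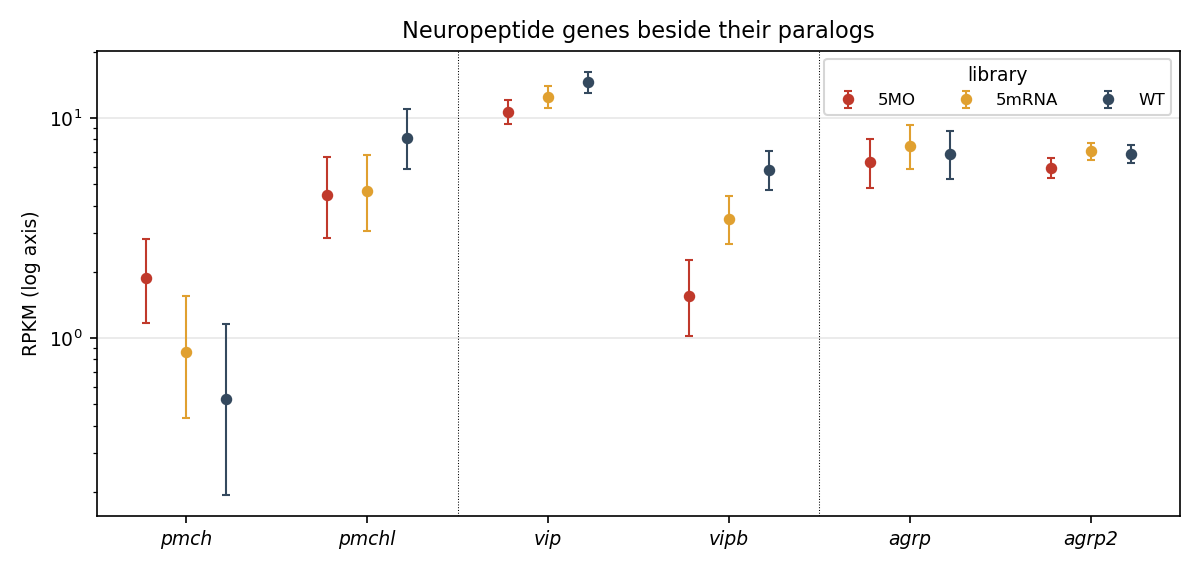
RPKM (log axis) of *pmch*, *vip* and *agrp*, each with its paralog, in the 5MO, 5mRNA and WT libraries, with bars for the 95% counting interval. *vipb* spans 1.56 to 5.82 RPKM with 5MO lowest, *pmch* is highest in 5MO (1.87) while *pmchl* is highest in WT (8.13), and *agrp* and *agrp2* stay between 5.94 and 7.47 RPKM.

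*agrp2*, which is made in the zebrafish pineal gland, had 5.94 RPKM in 5MO and 7.08 in 5mRNA, against 6.87 in WT, with ratios of 0.864 (0.753 to 0.9925) and 1.03 (0.905 to 1.17). *crha*, the paralog of *crhb*, was near 0, with 1, 1 and 4 reads in 5MO, 5mRNA and WT, and its ratio of 0.240 for 5MO over WT had an interval from 0.00488 to 2.43. *npb*, neuropeptide B, had 7.22 RPKM in 5MO and 7.01 in 5mRNA, against 8.43 in WT. The precursors of PACAP, a peptide related to VIP, were *adcyap1a*, with 4.36, 4.72 and 5.25 RPKM, and *adcyap1b*, the highest gene of the list, with 56.7 RPKM in 5MO and 56.2 in 5mRNA, against 50.2 in WT. *adcyap1b* was the one relative with an interval above 1 in both injected libraries, at ratios of 1.13 (1.06 to 1.21) and 1.12 (1.05 to 1.198). It overlaps *yes1* on the opposite strand, whose reads could not be told apart from its own if the counting ignored strand.

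Most receptors had lower RPKM than most of the peptides. Of 31 receptor symbols written, 27 were in the table, and of these 12 were higher and 15 lower in 5MO than in WT, 4 and 2 past 1.5-fold, with 2 intervals above 1 and 3 below and a median log2 ratio of -0.18. In 5mRNA 13 were higher and 14 lower, 4 and 4 past 1.5-fold, with 3 intervals above 1 and 3 below and a median of -0.02. The hypocretin receptor *hcrtr2* had 0.449 RPKM in 5MO and 1.01 in 5mRNA, against 1.05 in WT, from 12, 29 and 27 reads. Its ratio was 0.427 (0.197 to 0.872) for 5MO over WT, where that of *hcrt* was 4.08, and 0.958 (0.548 to 1.68) for 5mRNA over WT, where that of *hcrt* was 4.68. *hcrtr2* overlaps a gene of the opposite strand, si:ch73-31h21.2, which had 0.9499, 2.14 and 0.8475 RPKM. The melanin-concentrating hormone receptors *mchr1a* and *mchr1b* had 5, 0 and 3 reads and 10, 14 and 5 reads in 5MO, 5mRNA and WT, too few to separate the libraries.

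Among the neuropeptide Y receptors, *npy4r* had 0.669 RPKM in 5MO and 0.173 in 5mRNA, against 0.116 in WT, from 18, 5 and 3 reads, at a ratio of 5.76 (1.68 to 30.55) for 5MO over WT. It overlaps *slc16a9a*, a transporter gene of the opposite strand with 17.8 RPKM in 5MO, 29.5 in 5mRNA and 15.6 in WT. *npy1r* had 1.48 RPKM in 5MO and 1.95 in 5mRNA, against 0.852 in WT, with ratios of 1.74 (0.995 to 3.12) and 2.29 (1.36 to 3.999), of which the first includes 1. *npy8ar* had 1.03 RPKM in 5MO and 3.01 in 5mRNA, against 1.58 in WT, and stood out in 5mRNA with a ratio of 1.91 (1.202 to 3.11). The intervals of the other 4 neuropeptide Y receptors (*npy2r*, *npy2rl*, *npy7r* and *npy8br*) included 1 in both injected libraries. The melanocortin receptors *mc4r*, with 18, 10 and 11 reads, and *mc3r*, with 5, 5 and 4 reads in 5MO, 5mRNA and WT, on which *agrp* acts, did not separate either. The reads of *mc3r* are the lowest solution, at a length of 525. Its span of 28645057 to 28646106 also holds 2 times that length, so they may be 2 times those given.

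The oxytocin receptor *oxtr* had 1.27 RPKM in 5MO and 0.510 in 5mRNA, against 1.45 in WT, from 30, 13 and 33 reads. It was lower in 5mRNA, at a ratio of 0.352 (0.170 to 0.686), and not separated in 5MO, at 0.873 (0.515 to 1.48), where *oxt* was highest. Among vasopressin receptors *avpr1aa* had 3.10 RPKM in 5MO and 5.06 in 5mRNA, against 4.61 in WT, with a ratio of 0.672 (0.515 to 0.873) for 5MO over WT. *avpr2aa* had 49 reads in 5MO and 82 in 5mRNA, against 44 in WT, with a ratio of 1.66 (1.14 to 2.46) for 5mRNA over WT. *avpr2l* had 6 reads in 5MO and 0 in 5mRNA, against 13 in WT. With the 0 set to a floor of 3 reads, 5mRNA was 4.86-fold lower than WT, which leaves out the counting error of the 13 WT reads. The corticotropin-releasing hormone receptor *crhr1* was lower, like *crhb*, with 2.099 RPKM in 5MO and 2.33 in 5mRNA, against 2.65 in WT, and ratios of 0.793 (0.696 to 0.903) and 0.880 (0.777 to 0.997). *crhr2* had 12, 15 and 15 reads. *trhr2*, a receptor of thyrotropin-releasing hormone, had 1.35 RPKM in 5MO and 0.642 in 5mRNA, against 0.754 in WT, with a ratio of 1.79 (1.04 to 3.16) for 5MO over WT, while *trhra* (0.689, 0.454 to 1.04) and *trhrb* (1.14, 0.661 to 1.975) included 1. The intervals of the other vasopressin, oxytocin and VIP receptors of the list (*avpr1ab*, *avpr2ab*, *oxtrl*, *vipr1a* and *vipr1b*) included 1 in both injected libraries. The highest receptor was *vipr2*, with 6.48 RPKM in 5MO and 8.46 in 5mRNA, against 7.43 in WT. Its ratio was 0.872 (0.693 to 1.096) for 5MO over WT, and it overlaps *zmynd11* on the opposite strand.

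Most genes of the proteins that cut and store the peptides had higher RPKM than the peptides. Of 17 symbols written for processing and granule proteins 15 rows were found, of which 4 were higher and 11 lower in 5MO, 0 and 1 past 1.5-fold, with 2 intervals above 1 and 7 below and a median log2 ratio of -0.07. In 5mRNA 4 were higher and 11 lower, 0 past 1.5-fold either way, with 2 intervals above 1 and 6 below and a median of -0.06. Carboxypeptidase E (*cpe*), which trims the cut peptides, was highest, with 130.2 RPKM in 5MO and 129.2 in 5mRNA, against 136.3 in WT. The prohormone convertase *pcsk1* had a ratio of 0.868 (0.812 to 0.929) for 5MO over WT and its partner *pcsk2* 1.101 (1.005 to 1.206). The granule proteins *chga* and *chgb* differed in direction, at 1.22 (1.08 to 1.38) and 0.823 (0.750 to 0.901) for 5MO over WT and 1.16 (1.02 to 1.31) and 0.911 (0.834 to 0.994) for 5mRNA over WT. *scg5*, a chaperone of *pcsk2*, stands on 2 rows, with 13.1, 9.05 and 13.6 RPKM on chromosome 20 and 4.67, 13.1 and 12.1 RPKM on chromosome 19 in 5MO, 5mRNA and WT. How reads were divided between its copies is uncertain.

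Of 30 symbols of transcription factors of the developing hypothalamus, 26 were found. In 5MO 15 were higher and 11 lower than in WT, 3 and 1 past 1.5-fold, with 5 intervals above 1 and 2 below and a median log2 ratio of 0.08. In 5mRNA 18 were higher and 8 lower, 8 and 0 past 1.5-fold, with 11 intervals above 1 and 2 below and a median of 0.33. Of all genes, 9.06% were at least 1.5-fold higher and 8.74% lower in 5mRNA, and 17.5% had an interval above 1 and 17.0% below. The list was chosen with earlier results of these data known, so its excess over these shares is a description only. The 8 include *nr5a1a*, with 13 reads in 5mRNA and 3 in WT, and *hmx3a*, whose span holds *hmx2* on the same strand. They also include *nkx2.4a* and *rx3*, and *sim1a*, *sim1b*, *dlx2a* and *lhx6*, given below. *sim1a*, needed for the neurons that make *oxt*, *avp* and *crhb* in zebrafish, had 0.965 RPKM in 5MO and 1.15 in 5mRNA, against 0.483 in WT, from 52, 67 and 25 reads, at ratios of 1.998 (1.218 to 3.36) and 2.39 (1.49 to 3.95). Its partner *arnt2*, the highest of the list, had 50.3, 54.5 and 52.7 RPKM, and *sim1b*, which lies inside *mtpn*, had 0.812, 1.70 and 1.08 RPKM. The factors *otpa* and *otpb*, needed for the same neurons, had ratios of 0.942 (0.852 to 1.04) and 1.13 (0.957 to 1.33) for 5MO over WT and 0.847 (0.766 to 0.936) and 1.25 (1.07 to 1.46) for 5mRNA over WT. *lhx9*, which promotes hypocretin neurons in zebrafish, had 26.7 RPKM in 5MO and 24.1 in 5mRNA, against 24.6 in WT, with a ratio of 1.09 (0.988 to 1.19) for 5MO over WT. The factors *dlx2a* and *lhx6*, also active in the forebrain and outside it, were higher in both injected libraries, at 1.74 (1.32 to 2.30) and 1.68 (1.34 to 2.12) for 5MO over WT and 1.71 (1.31 to 2.25) and 1.64 (1.31 to 2.07) for 5mRNA over WT. *lhx6* overlaps *morn5* on the opposite strand. *bsx*, which is known for the expression of *npy* and *agrp* in mice, had 0.958 RPKM in 5MO and 1.31 in 5mRNA, against 1.63 in WT, with a ratio of 0.589 (0.314 to 1.08) for 5MO over WT.

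More of the other hypothalamic peptide genes were lower than higher in 5MO, while in 5mRNA they were split 19 to 20. Of 50 symbols written 40 were in the table and 39 passed the filter on mean RPKM. In 5MO 13 were higher and 26 lower than in WT, with a median log2 ratio of -0.13. Past 1.5-fold were 4 upward and 5 downward, against 9.17% and 9.39% of all genes. The interval lay above 1 for 4 and below 1 for 5, against 19.0% and 18.5% of all genes. The median of the 9 members, also -0.13, is the value of *agrp* alone, whose interval included 1. In 5mRNA 19 were higher and 20 lower, 6 and 4 past 1.5-fold, with 4 intervals above 1 and 4 below and a median of -0.05. *nucb2a*, the precursor of nesfatin, was highest, with 65.5 RPKM in 5MO and 56.1 in 5mRNA, against 59.8 in WT. The 2 largest increases and 2 largest decreases on the log2 scale in 5MO over WT rested on few reads, with 2, 6 and 0 in 5MO, 5mRNA and WT for *ghrh*, the growth hormone-releasing hormone, 5, 11 and 2 for neuromedin S (*nms*), 1, 1 and 4 for neuromedin B (*nmba*), and 5, 13 and 12 for kisspeptin (*kiss2*). *pomca*, the precursor of the melanocortins that *agrp* opposes at their receptors, had 10.9 RPKM in 5MO and 11.1 in 5mRNA, against 12.4 in WT, with ratios of 0.883 (0.798 to 0.978) and 0.900 (0.815 to 0.994). It is also made by the pituitary, and it overlaps 2 genes of the opposite strand.

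*oxt* had the widest range over the 3 libraries, 0.69 on the log2 scale, among the 7 members with at least 10 reads in each. The genes most like it, by the Euclidean distance of log2(RPKM + 0.1) centred over the 3 libraries, were the chemokine gene *cxcl20* at a distance of 0.0098, the paired box gene *pax9* at 0.0161 and the kinase gene *grk5* at 0.0162, among 19172 genes that averaged 1 RPKM or more. *cxcl20* had 4.51 RPKM in 5MO and 3.67 in 5mRNA, against 2.775 in WT, *pax9* 7.01 and 5.71 against 4.24, and *grk5* 3.525 and 2.89 against 2.18. A further count of the near profiles found 26 genes within 0.05 and 133 within 0.1. How many near profiles other genes have was not computed, and likeness over 3 libraries describes the profile only.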

How the data were processed

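RNA-seq libraries (NEBNext Ultra kit) were made from total RNA of whole larvae, 1 per group. Alignment by the authors used STAR 2.5.2a and danRer10, according to the submitters' processing notes. The mapping summaries they deposited count 28190319 (5MO), 31140490 (5mRNA) and 27492652 (WT) input pairs, of which 87.88%, 87.63% and 87.68% mapped uniquely. The deposited expression values are RPKM per gene and library, computed by the authors. The counting tool, its use of strand and the annotation release are not given in the sources used here. Of 28117 rows, 33 name no gene, hold 36.1%, 35.7% and 35.8% of the RPKM sum in 5MO, 5mRNA and WT, and were left out.

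Read totals were recovered from the steps of the RPKM values, and 60 of 60 genes used for this then gave a whole length. Reads per gene were then sought as whole numbers at 1 common length for the 3 libraries, within 0.0002, and the lowest solution was kept (25904 genes). Real reads can be a whole multiple of it, which would narrow the intervals. Another 2179 genes were at 0 in every library and 1 was not resolved. Log2 ratios used RPKM + 0.1 and genes averaging at least 0.1 RPKM (23709 genes, all 9 members among them), and a call was a change of 1.5-fold. Ratios of read shares had 95% Clopper-Pearson intervals. With 1 library per group no test across samples was made. The steps were also run on simulated data, which took the recovered lengths as true and held counting error only. That run cannot tell whether a real length is a multiple of the recovered one, and it holds no spread beyond counting. Python 3.11.15, numpy 2.4.6, scipy 1.17.1, pandas 2.3.3 and matplotlib 3.10.9 were used.

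The members and lists were chosen with earlier results of these data known. The text names all members, and of each other list the highest gene, the 2 largest increases and 2 largest decreases in 5MO over WT, and genes past 1.5-fold and the interval in 1 direction in both injected libraries. Receptors and paralogs are named beside their peptide, and a few other genes were picked after their values were seen (*pomca*, the regulators *otpa*, *otpb* and *lhx9*, and *pcsk1*). Alternatives were other pseudocounts, scalings, filters, folds and interval levels. Doubled reads and leaving out *pmch*, or *hcrt* and *pmch*, were added after the data were seen. Sequences were not used here.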

Additional observations from a re-analysis of the deposited data

How the results depend on the processing

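The 27 log2 ratios of the members kept their sign under both other pseudocounts and both other scalings, and all 108 values so obtained lay inside the member's counting interval. A pseudocount cannot change the sign of a log2 ratio, so that part of the check could not fail. A pseudocount of 1 lowered the log2 ratio for 5MO over WT to 0.94 for *hcrt*, in place of 1.81, and to 0.91 for *pmch*, in place of 1.64, and that of *hcrt* for 5mRNA over WT to 1.07, in place of 1.99. The scaling factors of the libraries were between 0.9919 and 1.008, too near 1 to reverse the sign of any member. They were also too near 1 to take a value out of its counting interval, so the check of the scalings could not fail either. The median log2 ratio stayed between -0.29 and -0.11 for 5MO over WT, between -0.22 and -0.11 for 5mRNA over WT and between -0.13 and -0.04 for 5MO over 5mRNA. The counts of members past 1.5-fold depended on the genes with few reads. Without *hcrt* and *pmch* the count was 1 in place of 3 for 5MO over WT, 0 in place of 2 for 5mRNA over WT and 0 in place of 1 for 5MO over 5mRNA. At 2-fold it was 2 for 5MO over WT. Without *pmch* alone it was 1 for 5mRNA over WT and 0 for 5MO over 5mRNA. For 5mRNA over WT it was also 1 with a pseudocount of 1 and 1 at 2-fold. The number of members whose counting interval leaves out 1 was 1 for 5mRNA over WT, and 5 (2 higher, 3 lower) if every gene had 2 times the recovered reads. For 5MO over 5mRNA it was 1, which became 3 (2 higher, 1 lower) with doubled reads, 0 with a 99% interval and 0 without *pmch*. For 5MO over WT it was 6, which became 7 (3 higher, 4 lower) with doubled reads and 4 with a 99% interval (3 higher, 1 lower). The shares of all genes at these other settings were not computed, so the changed counts have no background beside them. Leaving out *pmch* and *hcrt* and doubling the reads were chosen after seeing the data. Doubling changes no ratio and narrows every interval at once, and whether the real reads of any member are doubled was not tested. No library could be left out, as each group has 1. The depth limits *hcrt*, *pmch* and *avp* most, with 4 to 22 reads per library. For *avp* the interval of the ratio over WT still reached up to 2.43 in 5MO and down to 0.323 in 5mRNA.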

Other observations

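Genes of the stress axis that *crhb* drives were read as values only. Of 10 such genes, 8 passed the filter on mean RPKM, with 2 higher and 6 lower in 5MO than in WT, 1 past 1.5-fold each way and a median log2 ratio of -0.28, and in 5mRNA 4 were higher and 4 lower, again 1 past the fold each way, with a median of -0.02. *fkbp5*, a glucocorticoid-induced chaperone of the glucocorticoid receptor, had 14.1 RPKM in 5MO and 14.8 in 5mRNA, against 260.2 in WT, from 507, 572 and 8956 reads. Its ratios were 0.0544 (0.0496 to 0.0595) for 5MO over WT and 0.0570 (0.0523 to 0.0620) for 5mRNA over WT, so that the WT library stood apart from both injected ones. *star*, which carries cholesterol into mitochondria for steroid synthesis, was higher in both injected libraries, with 5.77 RPKM in 5MO and 5.44 in 5mRNA, against 2.63 in WT, at ratios of 2.20 (1.59 to 3.06) and 2.07 (1.50 to 2.89). The binding protein *crhbp* had 11.4 RPKM in 5MO and 15.9 in 5mRNA, against 17.0 in WT, with ratios of 0.671 (0.581 to 0.773) and 0.935 (0.823 to 1.06). The glucocorticoid receptor *nr3c1* had 27.5, 33.1 and 27.2 RPKM in 5MO, 5mRNA and WT.

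Of 7 pituitary hormone symbols, 6 were in the table and 4 passed the filter, with 3 higher and 1 lower in 5MO than in WT and a median log2 ratio of 0.21, and 1 higher and 3 lower in 5mRNA with a median of -0.23. *gh1*, growth hormone, had 1.60 RPKM in 5MO and 3.71 in 5mRNA, against 1.29 in WT, from 39, 97 and 30 reads, at ratios of 1.25 (0.756 to 2.08) and 2.89 (1.90 to 4.502). *tshba*, a thyrotropin subunit, had 9, 6 and 7 reads, and *prl*, prolactin, 5, 3 and 4 reads in 5MO, 5mRNA and WT. Of peptide genes outside the 9, chosen after their values were seen, *pdyn*, the dynorphin precursor, was higher in both injected libraries, at 1.47 (1.08 to 2.004) and 1.56 (1.16 to 2.12), and *vgf*, a granule protein, lower in both, at 0.882 (0.821 to 0.947) and 0.736 (0.684 to 0.792). The bombesin-like *nmbb* (0.508, 0.309 to 0.817), the enkephalin precursor *penka* (0.699, 0.569 to 0.858) and the CART peptide precursor *cart2* (0.701, 0.520 to 0.942) were lower in 5MO than in WT, and the nociceptin precursor *pnocb* (1.529, 1.056 to 2.233) and *nucb2b*, the paralog of *nucb2a* (1.184, 1.028 to 1.363) were higher. Relatives of these genes lay on the other side of 1, with intervals that included it. They were *penkb* (1.194, 0.957 to 1.493), *cart1* (1.784, 0.6615 to 5.281), *cart4* (1.187, 0.737 to 1.923) and *pnoca* (0.8335, 0.578 to 1.199). Of the 39 other peptide genes tested, 4 had an interval above 1 and 5 below in 5MO, against 19.0% and 18.5% of all genes.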
